A study of Mus musculus with 9 samples.

Results

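The genes described here encode a glucose transporter and enzymes of glycolysis: Slc2a1, Hk1, Hk2, Pfkl, Pfkp, Aldoa, Pgk1, Pkm, Ldha and Ldhb. They were chosen by symbol and are 10 of the 30406 genes listed for all 9 libraries. Aldoa had a second identifier with 105 UMI against 527429 UMI for the one used, and the second was left out. All 10 genes passed the filter on low counts in every comparison.

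Glycolysis splits glucose into pyruvate and yields ATP without oxygen. The glucose transporter GLUT1 (Slc2a1) lets glucose in, hexokinase traps it as glucose 6-phosphate, phosphofructokinase commits it to the pathway, and aldolase, phosphoglycerate kinase and pyruvate kinase carry it on to pyruvate, which lactate dehydrogenase interconverts with lactate. Several steps have isozymes from separate genes: HK1 is known as the main hexokinase of the brain and HK2 as an inducible form of muscle, fat and activated immune cells, while the A and B subunits of lactate dehydrogenase combine into tetramers and the B subunit is typical of heart and neurons. Many of these genes are known targets of hypoxia-inducible factor (HIF).

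The cultures were mouse embryonic fibroblasts (MEFs) that had received the BAM genes, a set of neuronal transcription factors, by lentivirus under a doxycycline-dependent promoter, which turns part of the cells into induced neurons (iNs). MEFs were WT, Per1-/- (Per1tm1Drw) or Per2-/- (Per2tm1Drw), alleles of the circadian regulators PER1 and PER2, and came from pooled embryos without head and heart. Single-cell RNA-seq from the 3′ end was done on days 4, 7 and 10, with 1 library for each genotype and day, so that every group held the BAM genes and no untransduced culture was among them. Each library therefore has no repeat of its own: days were compared with the 3 genotypes as repeats, genotypes with the 3 days as repeats, and cell classes within the 9 libraries.

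Of 95603 barcodes, 81943 reached 3000 UMI with no more than 20% from mitochondrial genes, 7158 of them were set aside as likely doublets, and 74785 cells were kept (6047 to 10656 per library). Libraries held 1.27e+08 to 3.53e+08 UMI, and pairs of libraries shared 11 to 38 barcodes. In the WT library of day 10, 55.05% of barcodes passed, against 86.1% to 94.5% elsewhere, and a cluster that came to 97.5% from that library was left unnamed. The labels call every sample induced neurons, yet cells fell into several classes by their markers: 25212 fibroblast-like cells (1151 to 5143 per library), 8144 neuron-like cells (215 to 1790) and 6394 macrophage-like cells (138 to 1388). The summed neuron markers came to 4994 to 10825 CPM (UMI per 1000000 UMI of the class) in neuron-like cells and 25.1 to 277 CPM in the other 2 classes, and the macrophage markers to 24450 to 32239 CPM in macrophage-like cells against 20.6 to 170.2 CPM. A further 28123 cells stayed unnamed, among them 2 clusters (6211 cells) with fibroblast markers but neuronal leading genes and 4 clusters (16027 cells) with fibroblast markers but a leading gene of another class. Per1 RNA was higher in Per1-/- libraries (9.12 to 10.3 CPM) than in WT (6.33 to 7.84 CPM), and Per2 RNA higher in Per2-/- libraries (4.98 to 6.39 CPM) than in WT (2.59 to 2.98 CPM). Tags from the 3′ end count RNA that a targeted allele still makes, so these values do not test the loss of either protein.

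The 3 classes differed in which isozyme's RNA they held for the same step. Neuron-like cells held more Hk1, Pfkp and Ldhb RNA than fibroblast-like cells and less Slc2a1, Hk2 and Ldha, and a lower Pgk1 call depended on the scaling. Macrophage-like cells held more Hk2, Pfkp, Aldoa, Pgk1, Pkm and Ldha than fibroblast-like cells and less Hk1 and Ldhb. Summed over the 10 genes, the median level was 1221 CPM in neuron-like cells (1036 to 1609 over the 9 libraries), 1489.8 CPM in macrophage-like cells (1072 to 2641) and 863 CPM in fibroblast-like cells (710.5 to 1327). The 3 ranges overlapped. Compared within libraries, the sum was higher in macrophage-like than in fibroblast-like cells in 9 of 9 libraries. It was higher in macrophage-like than in neuron-like cells in 7 of 9, and in neuron-like than in fibroblast-like cells in 6 of 9.

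Genes were tested with edgeR's quasi-likelihood test on UMI summed per library and class, with the library as a block and p-values adjusted by Benjamini-Hochberg over the 16325 genes tested. The classes differ in most of their RNA, so the background is high. Between neuron-like and fibroblast-like cells, 7 of the 10 genes passed an adjusted p of 0.05, 3 higher and 4 lower (Pgk1, among the 4, did not pass with UMI totals as scaling), where 78.7% of all genes passed (38.2% higher, 40.4% lower). Between macrophage-like and fibroblast-like cells, 8 passed, 6 higher and 2 lower, against 81% of all genes (35.7% higher, 45.3% lower). Between macrophage-like and neuron-like cells, 9 passed against 85.9% of all genes (39.2% higher, 46.8% lower), with 6 higher, 2 lower and Pfkl, fitted as higher, left without a direction because it turned with the scaling. The counts stood near the background, so what the members show lies in which gene moved which way and how far. Their median log2 fold change was -0.03 (all genes -0.02), 1.03 (all genes -0.18) and 1.18 (all genes -0.18) in the 3 comparisons. Fold changes between classes depend on the scaling: TMM, which was used, moved them from the plain CPM ratio by -0.43 (neuron-like against fibroblast-like), 0.20 (macrophage-like against fibroblast-like) and 0.63 (macrophage-like against neuron-like) on the log2 scale. With UMI totals alone as scaling, calls over all genes split into 9061 higher and 4529 lower, 4943 and 8483, and 4211 and 10350 in the 3 comparisons, against 6241 and 6603, 5828 and 7400, and 6393 and 7633 with TMM.

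Slc2a1 (ENSMUSG00000028645, chr4:119108711-119137983, plus strand, build GRCm38) was the scarcest gene in macrophage-like cells and the second scarcest in the other classes. Its level ran from 3.84 to 6.43 CPM in neuron-like cells (median 5.05), from 2.79 to 14.5 CPM in macrophage-like cells (median 7.53) and from 5.06 to 19.2 CPM in fibroblast-like cells (median 8.78). The highest fibroblast-like value was that of Per2-/- on day 4, and all 3 ranges overlapped. Within libraries, neuron-like cells were below fibroblast-like cells in 9 of 9 (log2 fold change -1.22 ± 0.18 SE, adjusted p = 2.5e-06), while macrophage-like and fibroblast-like cells gave -0.07 ± 0.17 (adjusted p = 0.73). Against neuron-like cells, macrophage-like cells were higher by 1.16 ± 0.18 (adjusted p = 6.4e-06), with a higher CPM in 7 of 9 libraries and 0.51 with UMI totals alone as scaling.

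The hexokinase genes set the classes apart. Hk1 (ENSMUSG00000037012, chr10:62268855-62379908, minus strand) ran from 96.2 to 116 CPM in neuron-like cells (median 110.1), from 26.7 to 36.0 CPM in fibroblast-like cells (median 32.8) and from 10.1 to 30.1 CPM in macrophage-like cells (median 23.2). Every neuron-like value stood above every macrophage-like and fibroblast-like value, by 1.30 ± 0.11 on the log2 scale over fibroblast-like cells (adjusted p = 1.2e-09). Astrocyte-like cells, a smaller class described below, held Hk1 at 54.0 to 101.3 CPM, which overlaps the neuron-like range. Macrophage-like cells gave -1.74 ± 0.12 against neuron-like cells (adjusted p = 1.4e-11) and -0.44 ± 0.11 against fibroblast-like cells (adjusted p = 0.0014). Hk2 (ENSMUSG00000000628, chr6:82725025-82774454, minus strand) ran from 57.7 to 82.2 CPM in macrophage-like cells (median 72.2), from 2.93 to 8.75 CPM in fibroblast-like cells (median 4.16) and from 0.936 to 8.54 CPM in neuron-like cells (median 1.66). Macrophage-like cells again did not overlap the rest, at 4.21 ± 0.26 over fibroblast-like cells (adjusted p = 4.3e-12) and 5.70 ± 0.30 over neuron-like cells (adjusted p = 2.7e-13). Over all libraries, a cycling macrophage-like cluster (740 cells) held Hk2 at 32.7 CPM, and the other macrophage-like clusters held it at 76.5 and 69.1 CPM. Mesothelial-like cells, a smaller class, held Hk2 at 0 to 41.7 CPM (median 12.1). Neuron-like against fibroblast-like cells gave -1.49 ± 0.29 (adjusted p = 8.9e-05). The neuron-like Hk2 values rested on 4 to 119 UMI. The largest of them, 8.54 CPM in Per2-/- on day 7 (95% Poisson interval 7.08 to 10.2), stood apart from the others, which reached at most 2.52 CPM. Poisson and binomial intervals here cover counting error only.

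Of the phosphofructokinase genes Pfkl and Pfkp, Pfkl was the more abundant in fibroblast-like cells, while Pfkp took a larger part of the pair in the other 2 classes. Pfkl (ENSMUSG00000020277, chr10:77986947-78010083, minus strand), the liver form, lay close together in the classes: 22.8 to 33.9 CPM in neuron-like (median 29.0), 14.97 to 26.2 CPM in macrophage-like (median 21.2) and 14.4 to 28.9 CPM in fibroblast-like cells (median 22.8). It did not pass against fibroblast-like cells in either class, and against neuron-like cells the macrophage-like estimate was 0.19 ± 0.08 (adjusted p = 0.033), although its CPM was lower in 9 of 9 libraries. With UMI totals alone as scaling that difference turned to -0.46, so no direction is given for it. Pfkp (ENSMUSG00000021196, chr13:6579768-6648777, minus strand), the platelet form, ran from 24.4 to 76.7 CPM in neuron-like cells (median 54.4), from 9.17 to 33.7 CPM in macrophage-like cells (median 22.4) and from 8.31 to 12.1 CPM in fibroblast-like cells (median 9.84). Neuron-like and fibroblast-like ranges did not overlap (1.76 ± 0.24, adjusted p = 1.3e-06), and macrophage-like cells were above fibroblast-like cells in 8 of 9 libraries (1.28 ± 0.24, adjusted p = 7.2e-05). Between macrophage-like and neuron-like cells the estimate was -0.48 ± 0.25 (adjusted p = 0.077); with UMI totals alone it was -1.12 and passed, and without the libraries of day 10 it was 0.03.

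Aldolase A, which splits the sugar phosphate, and phosphoglycerate kinase 1 and pyruvate kinase M, which make ATP in the lower pathway, had more RNA in macrophage-like than in fibroblast-like cells. Aldoa (ENSMUSG00000030695, chr7:126795234-126800751, minus strand) ran from 335 to 810.5 CPM in macrophage-like cells (median 441), from 219.6 to 494 CPM in neuron-like cells (median 334) and from 194 to 312 CPM in fibroblast-like cells (median 236). Macrophage-like cells lay wholly above fibroblast-like cells (1.15 ± 0.20, adjusted p = 1.7e-05), and above neuron-like cells in 6 of 9 libraries, all of days 4 and 7 (1.19 ± 0.20, adjusted p = 1.3e-05). In clusters with cells of every library, a choice made after the data were seen, the latter difference was 0.03 and did not pass. Pgk1 (ENSMUSG00000062070, chrX:106187100-106203699, plus strand) ran from 131 to 357 CPM in macrophage-like cells (median 212), from 78.3 to 152 CPM in neuron-like cells (median 107) and from 68.5 to 213 CPM in fibroblast-like cells (median 109). Macrophage-like cells were higher than fibroblast-like cells in 9 of 9 libraries (1.07 ± 0.21, adjusted p = 1.0e-04). Neuron-like against fibroblast-like cells gave -0.63 ± 0.21 (adjusted p = 0.011), which did not pass with UMI totals alone (-0.16). Its CPM was higher in neuron-like cells in 4 of 9 libraries, all 3 of day 10 among them, so no direction is given for it. Macrophage-like cells were above neuron-like cells in Pgk1 (1.70 ± 0.22, adjusted p = 3.6e-07) and Pkm (1.21 ± 0.14, adjusted p = 7.5e-08), each in 8 of 9 libraries, all but Per2-/- of day 10. With UMI totals alone these were 1.05 and 0.56, and in clusters with cells of every library 1.63 and 0.43, and all passed. Pkm (ENSMUSG00000032294, chr9:59656368-59679375, plus strand) ran from 261 to 859 CPM in macrophage-like cells (median 418), from 287 to 363 CPM in neuron-like cells (median 318) and from 131 to 355 CPM in fibroblast-like cells (median 211). It was higher in macrophage-like than in fibroblast-like cells in 9 of 9 libraries (1.30 ± 0.14, adjusted p = 2.9e-08), and its range was narrowest in neuron-like cells.

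The lactate dehydrogenase genes took opposite orders in neuron-like and macrophage-like cells. Ldha (ENSMUSG00000063229, chr7:46841475-46855627, plus strand), the A subunit, ran from 215 to 524 CPM in macrophage-like cells (median 305), from 152 to 299 CPM in fibroblast-like cells (median 196) and from 70.9 to 181 CPM in neuron-like cells (median 91.4). Macrophage-like and neuron-like values did not overlap (2.49 ± 0.20, adjusted p = 1.7e-10), and neuron-like cells were below fibroblast-like cells in 9 of 9 libraries (-1.50 ± 0.19, adjusted p = 3.5e-07). Macrophage-like cells were 0.99 ± 0.18 above fibroblast-like cells (edgeR, adjusted p = 4.7e-05). Ldhb (ENSMUSG00000030246, chr6:142490249-142507957, minus strand), the B subunit, ran from 150.5 to 212 CPM in neuron-like cells (median 183), from 35.3 to 58.0 CPM in fibroblast-like cells (median 48.2) and from 3.28 to 13.4 CPM in macrophage-like cells (median 8.43). No 2 of these classes overlapped in Ldhb: neuron-like cells were 1.46 ± 0.16 above fibroblast-like cells (adjusted p = 5.9e-08), and macrophage-like cells gave -2.43 ± 0.18 against them (adjusted p = 8.2e-11) and -3.89 ± 0.19 against neuron-like cells (adjusted p = 5.3e-14). Among smaller classes, Schwann-like cells (66.4 to 155 CPM) overlapped neuron-like cells in Ldhb, and astrocyte-like cells (247 to 630 CPM) stood above them.

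**Figure D1:**
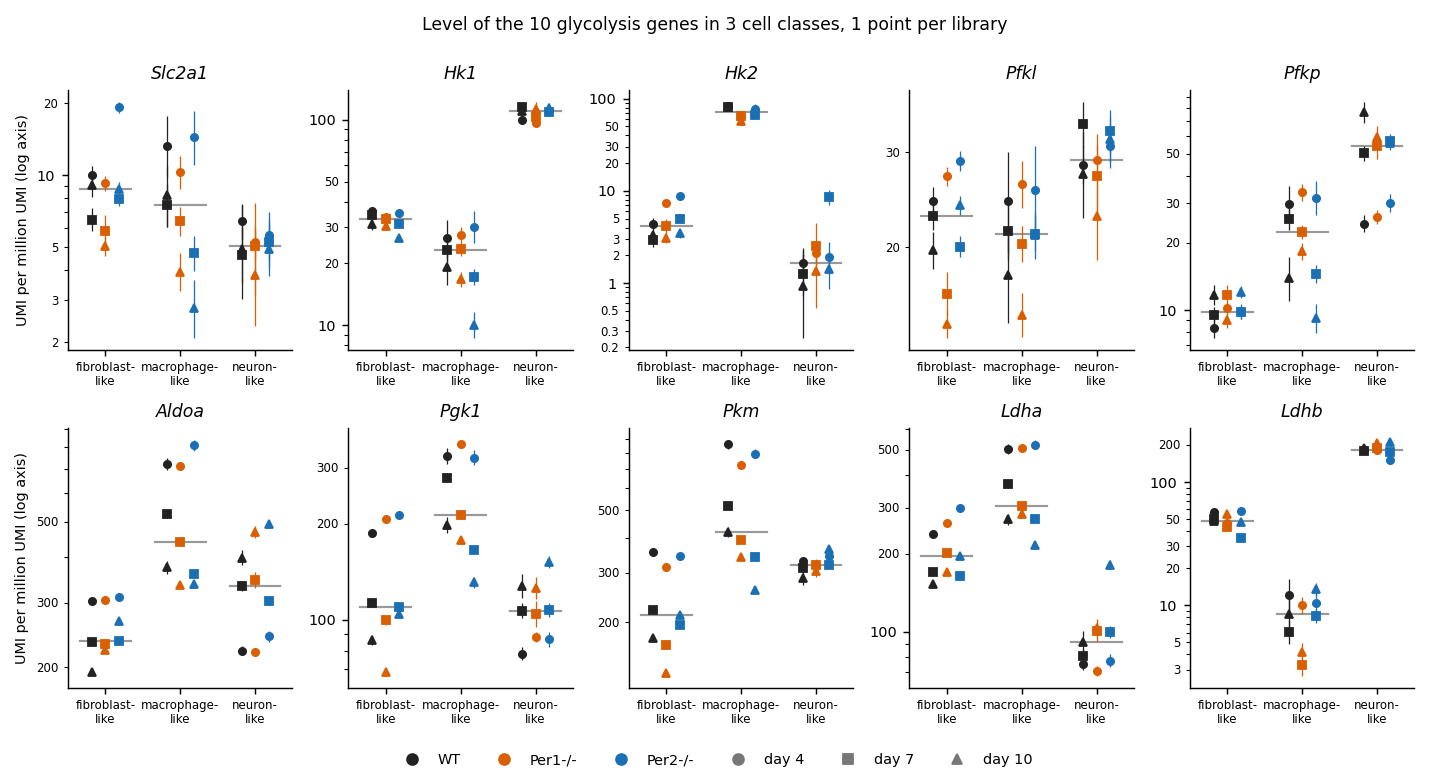
Level of each gene in UMI per 1000000 UMI (log axis) in fibroblast-like, macrophage-like and neuron-like cells, 1 point per library (colour for genotype, shape for day), with exact 95% Poisson intervals and the class median as a grey line. Neuron-like Hk1 (96.2 to 116), macrophage-like Hk2 (57.7 to 82.2) and Ldhb in all 3 classes stand clear of the other classes, while Slc2a1 and Pfkl overlap.

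RNA carried over between droplets was gauged with the marker lists. In neuron-like cells the macrophage markers stood at 0.0947% to 0.613% of their level in macrophage-like cells, and Hk2 at 1.17% to 12.9% of its level there. In macrophage-like cells the neuron markers stood at 0.283% to 1.56% of their level in neuron-like cells, and Ldhb at 1.74% to 6.89%. The fibroblast markers stood at 1.45% to 4.91% of their own level in neuron-like cells and at 0.556% to 2.68% in macrophage-like cells. These are shares of the fibroblast-like level and are not set against the Hk2 and Ldhb shares. Neuron-like cells came from MEF cultures, so fibroblast markers in them need not be carried over. The part of carried-over RNA in the low Hk2 and Ldhb levels was not tested.

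Because 3′ tags count a transcript once whatever its length, genes can also be ordered within a class by their UMI. Pgk1, Ldha and Aldoa have near-identical copies in the genome, so their places are uncertain to that extent. Other differences between genes in how fully their RNA is counted were not tested. In neuron-like cells the order of medians was Aldoa, Pkm, Ldhb, Hk1, Pgk1, Ldha, Pfkp, Pfkl, Slc2a1 and Hk2, and the neighbours Pkm and Ldhb, Ldhb and Hk1, and Pfkl and Slc2a1 did not overlap over libraries. In macrophage-like cells it was Aldoa, Pkm, Ldha, Pgk1, Hk2, Hk1, Pfkp, Pfkl, Ldhb and Slc2a1, with gaps after Pgk1, Hk2 and Pfkl. In fibroblast-like cells it was Aldoa, Pkm, Ldha, Pgk1, Ldhb, Hk1, Pfkl, Pfkp, Slc2a1 and Hk2, with gaps after Pgk1 and Pfkl. All other neighbours overlapped. Ldhb thus came right after Aldoa and Pkm in neuron-like cells and next to last in macrophage-like cells.

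Isozyme shares compare a pair of genes within the same sum and so do not depend on scaling, and further isozymes such as Hk3 and Pfkm are not in them. Ldhb made up 53.9% to 72.0% of lactate dehydrogenase UMI (Ldhb and Ldha) in neuron-like cells (median 66.5%), 14.98% to 24.4% in fibroblast-like cells (median 19.3%) and 1.06% to 5.88% in macrophage-like cells (median 1.94%). Hk2 made up 70.3% to 87.8% of hexokinase UMI (Hk2 and Hk1) in macrophage-like cells (median 77.5%), 7.85% to 19.9% in fibroblast-like cells (median 11.3%) and 0.840% to 7.24% in neuron-like cells (median 1.62%). Pfkp made up 46.1% to 73.7% of phosphofructokinase UMI (Pfkp and Pfkl) in neuron-like cells (median 63.6%), 30.4% to 56.3% in macrophage-like cells (median 54.3%) and 25.4% to 41.5% in fibroblast-like cells (median 32.7%). The Ldhb and Hk2 shares of the 3 classes did not overlap, and the Pfkp share of neuron-like cells lay above that of fibroblast-like cells in every library.

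Differences of the shares were tested within libraries with an exact two-sided permutation test over all sign flips, adjusted over the 6 differences. Against fibroblast-like cells, the Ldhb share was higher in neuron-like cells by 46.4 ± 6.35 percentage points (SD, n = 9, exact adjusted p = 0.0047) and different in macrophage-like cells by -17.2 ± 3.69 points (SD, n = 9, exact adjusted p = 0.0047). The Hk2 share differed by -10.3 ± 4.03 points in neuron-like cells and by 64.7 ± 8.13 points in macrophage-like cells (SD, n = 9, exact adjusted p = 0.0047 for both). The Pfkp share was 28.0 ± 5.80 points higher in neuron-like cells (SD, n = 9, exact adjusted p = 0.0047) and 17.0 ± 12.1 points higher in macrophage-like cells (SD, n = 9, exact adjusted p = 0.0078). The first 5 differences had 1 sign in 9 of 9 libraries, for which 0.0039 is the smallest unadjusted p the test allows, and the last in 8 of 9.

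**Figure D2:**
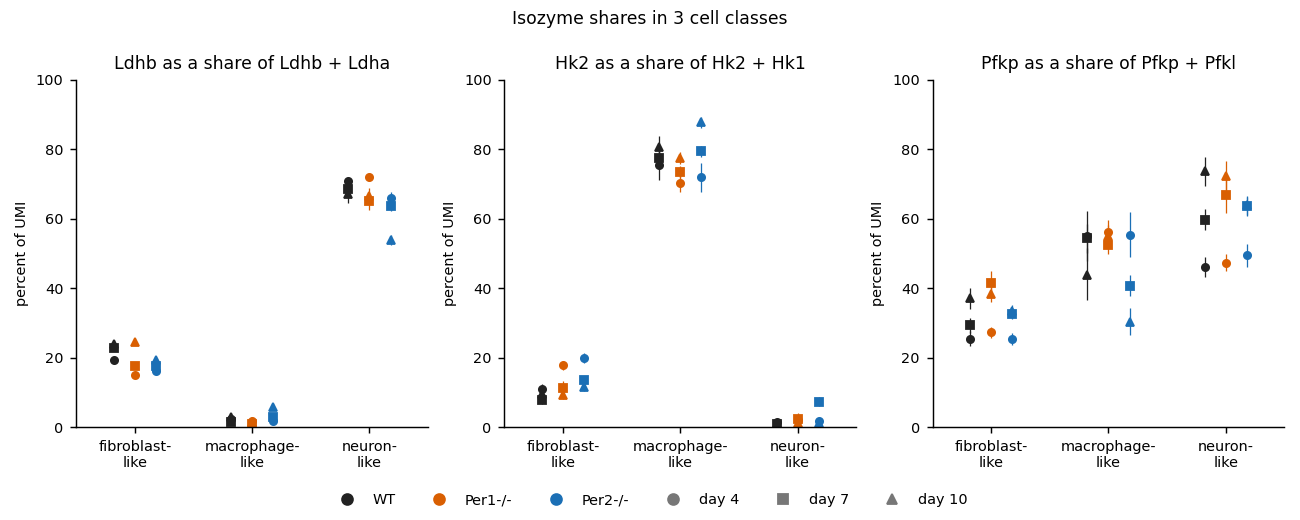
Share of Ldhb among Ldhb and Ldha UMI, of Hk2 among Hk2 and Hk1 UMI, and of Pfkp among Pfkp and Pfkl UMI, in percent, by class, 1 point per library with exact 95% binomial intervals. Neuron-like cells sit highest for Ldhb (53.9% to 72.0%) and macrophage-like cells for Hk2 (70.3% to 87.8%).

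The promoters of Ldha, Ldhb, Hk2 and Pgk1 are shown because Ldhb and Hk2 had the widest ratios of class medians among the 10 genes, Ldha is the partner of Ldhb, and Pgk1 moved with the day of culture. Each is the 250 bases before the RefSeq start (build GRCm38.p6), 5′ to 3′ on the gene's strand, with capitals at ACGTG and GCGTG on either strand (CACGT and CACGC when read on the other), the core letters of HIF response elements. CACGTG, the E-box read by CLOCK and BMAL1, holds ACGTG on both strands and overlaps it. Ldha has 2 entries in the RefSeq table, and the one nearer to the start of the annotated gene is shown, which lies inside the span given for Ldha.
Ldha promoter, chr7:46845554-46845803, plus strand: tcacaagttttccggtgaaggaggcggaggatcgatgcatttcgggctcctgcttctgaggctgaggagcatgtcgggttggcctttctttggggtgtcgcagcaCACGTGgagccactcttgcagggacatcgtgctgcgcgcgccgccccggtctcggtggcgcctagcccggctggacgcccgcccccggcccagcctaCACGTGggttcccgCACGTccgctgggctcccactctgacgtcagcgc
Ldhb promoter, chr6:142507958-142508207, minus strand: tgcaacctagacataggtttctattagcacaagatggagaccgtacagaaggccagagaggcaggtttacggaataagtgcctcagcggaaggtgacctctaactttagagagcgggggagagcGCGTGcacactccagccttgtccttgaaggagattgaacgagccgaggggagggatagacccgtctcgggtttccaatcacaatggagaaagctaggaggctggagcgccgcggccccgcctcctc
Hk2 promoter, chr6:82774455-82774704, minus strand: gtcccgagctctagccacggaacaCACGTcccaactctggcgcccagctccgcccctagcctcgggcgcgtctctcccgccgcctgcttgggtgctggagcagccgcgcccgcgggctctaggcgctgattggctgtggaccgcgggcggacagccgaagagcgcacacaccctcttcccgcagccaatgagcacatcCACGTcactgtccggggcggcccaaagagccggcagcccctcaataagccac
Pgk1 promoter, chrX:106186850-106187099, plus strand: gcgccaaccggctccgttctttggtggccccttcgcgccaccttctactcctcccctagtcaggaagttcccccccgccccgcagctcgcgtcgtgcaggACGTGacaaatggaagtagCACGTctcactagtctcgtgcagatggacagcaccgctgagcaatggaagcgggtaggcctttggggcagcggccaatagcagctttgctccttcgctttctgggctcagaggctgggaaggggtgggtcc
The Ldha promoter held CACGTG at 2 places and ACGTG at 5 positions counting both strands, the Hk2 and Pgk1 promoters ACGTG at 2 each, and the Ldhb promoter GCGTG at 1. All 10 genes had an entry, with 15 promoters between them, and 12 of the 15 held ACGTG or GCGTG, as did 38.6% of all 32851 promoters of this length (ACGTG 16.6%, GCGTG 28.2%, CACGTG 6.02%). Among the 12, 2 Aldoa promoters overlap and hold the same ACGTG, so that match counts in both. The share was not tested, and promoters of like GC content were not compared. CACGTG occurred in 1 of the 10 genes, Ldha. These are matches of letters and not measured sites.

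Taken as whole classes, the cells differed in their change over time, and some genes went opposite ways. From day 4 to day 10, neuron-like cells gained Pfkp, Aldoa, Ldha, Pgk1 and Ldhb RNA, while macrophage-like cells lost Slc2a1, Hk1, Pfkp, Aldoa, Pgk1, Pkm and Ldha and fibroblast-like cells lost Slc2a1, Hk2, Aldoa, Pgk1, Pkm and Ldha. In each class the day was tested with genotype as a factor (edgeR, 9 sums, adjusted over 12641 to 16340 genes). Different clusters held most macrophage-like and neuron-like cells on different days: macrophage-like cells of day 10 came mostly from a cluster with 171, 1188 and 938 cells in WT, Per1-/- and Per2-/- and 0 cells on days 4 and 7, and neuron-like cells of day 10 mostly from a cluster with 144 to 709 cells per library on that day and 0 to 64 before. Fibroblast-like cells of day 10 came mostly from 1 cluster in Per1-/- (3604 cells, 51 on day 4) and another in Per2-/- (4418 cells, 0 on day 4), while in WT a further pair of clusters held most of them on both days (436 and 956 cells on day 4, 504 and 404 on day 10). The cluster of the Per2-/- cells came to 94.5% from that library, just under the 95% above which a cluster was left unnamed. Day 10 was also counted with another Cell Ranger version than days 4 and 7 (6.0.0 against 4.0.0), and day and version cannot be told apart for day 10. Because of the change in clusters, each comparison was run again in clusters with at least 20 cells of every library. This choice was made after the data were seen. The day 10 counts of these clusters still come from the other version, so day and version cannot be told apart there either. The clusters were 1 neuron-like cluster led by Htr3a and Pomc (38 to 108 cells per library) and 1 cycling macrophage-like cluster (23 to 174). The others were 2 fibroblast-like clusters, 1 of them cycling. They are only a part of each class. Over all libraries, that neuron-like cluster held Aldoa at 534 CPM and Pkm at 501 CPM. The other neuron-like clusters held 235 to 458 and 305 to 312 CPM. Of the gains to day 10, only that of Pfkp passed in that neuron-like cluster, as given below.

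In neuron-like cells, 5 of the 10 genes rose from day 4 to day 10 and none fell. The count was close to the 41.4% of all genes that passed. Pfkp was at 24.4, 26.1 and 30.2 CPM (WT, Per1-/- and Per2-/-) on day 4, 50.4, 54.4 and 57.4 CPM on day 7 and 76.7, 59.6 and 56.0 CPM on day 10. Every value of days 7 and 10 was above every value of day 4 (day 10 against day 4, 1.31 ± 0.13, adjusted p = 2.1e-05). Aldoa was at 222, 219.6 and 243 CPM on day 4, 334, 347 and 304 CPM on day 7 and 399, 469.5 and 494 CPM on day 10. The 3 days did not overlap (1.06 ± 0.11, adjusted p = 3.1e-05). Pgk1 went from 78.3, 88.3 and 86.7 CPM on day 4 to 107, 104 and 107 CPM on day 7 and 128, 126 and 152 CPM on day 10. Again the days did not overlap (0.74 ± 0.09, adjusted p = 1.2e-04). Ldha stood at 75.3, 70.9 and 77.7 CPM on day 4 and 91.4, 103 and 181 CPM on day 10 (0.78 ± 0.17, adjusted p = 0.0041), with Per2-/- far above the others on day 10. Without that library the Ldha change was 0.47 and still passed. Ldhb rose least (0.30 ± 0.10, adjusted p = 0.030), from 150.5 to 183 CPM on day 4 to 188 to 212 CPM on day 10, and lost the call without Per1-/- or Per2-/- of day 4, Per1-/- of day 7, or Per1-/- or Per2-/- of day 10 (0.19 to 0.33).

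Pkm, the most abundant gene beside Aldoa, gave 0.01 ± 0.10 in neuron-like cells (330.3, 316 and 344 CPM on day 4, and 287, 303 and 363 CPM on day 10). Hk1 (0.21 ± 0.08, adjusted p = 0.072), Slc2a1 (-0.26 ± 0.20, adjusted p = 0.31), Hk2 (-0.76 ± 0.52, adjusted p = 0.27) and Pfkl (-0.04 ± 0.11, adjusted p = 0.80) did not pass on day 10 either. By day 7, 3 genes had passed, Pfkp (0.996 ± 0.126), Aldoa (0.52 ± 0.11) and Pgk1 (0.32 ± 0.09), against 17% of all genes, and Pgk1 lost the call without any 1 of the 6 libraries of days 4 and 7 (0.25 to 0.38). In the neuron-like cluster with cells of every library, Pfkp alone passed on day 10 (0.93), against 4.61% of all genes there, and Aldoa (0.29), Pgk1 (-0.20), Ldha (-0.08) and Ldhb (-0.32) did not.

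In macrophage-like cells, 7 of the 10 genes fell from day 4 to day 10 and none rose, where 17.2% of all genes passed. Pkm was at 859, 725 and 795 CPM (WT, Per1-/- and Per2-/-) on day 4, 519.7, 391 and 342 CPM on day 7 and 418, 342 and 261 CPM on day 10. The day 4 values stood above all others (-1.17 ± 0.13, adjusted p = 0.0018). Aldoa went from 719, 711 and 810.5 CPM to 375, 335 and 337 CPM (-1.02 ± 0.14, adjusted p = 0.0052), and Ldha from 504, 507 and 524 CPM to 271, 285 and 215 CPM (-0.92 ± 0.12, adjusted p = 0.0046). Neither overlapped between these days. Pgk1 went from 325, 357 and 322 CPM to 198, 178 and 131 CPM (-0.93 ± 0.14, adjusted p = 0.0068), Pfkp from 29.9, 33.7 and 31.8 CPM to 13.9, 18.3 and 9.17 CPM (-1.15 ± 0.20, adjusted p = 0.011) and Hk1 from 26.6, 27.5 and 30.1 CPM to 19.1, 16.7 and 10.1 CPM (-0.84 ± 0.19, adjusted p = 0.023). Slc2a1 went from 13.3, 10.3 and 14.5 CPM to 8.25, 3.95 and 2.79 CPM (-1.40 ± 0.29, adjusted p = 0.017). All 4 genes were lower in each library of day 10 than in any of day 4. Slc2a1 and Hk1 lost the call without Per1-/- of day 4, Per1-/- of day 10 or Per2-/- of day 10 (Slc2a1 -1.58 to -1.18, Hk1 -0.99 to -0.67).

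Hk2, the gene that stood highest over the other classes here, had overlapping days, at 82.2, 65.0 and 77.6 CPM on day 4 and 80.2, 57.7 and 72.2 CPM on day 10 (-0.02 ± 0.10, adjusted p = 0.92). Pfkl (-0.44 ± 0.13, adjusted p = 0.057) and Ldhb (-0.44 ± 0.28, adjusted p = 0.30) did not pass either. By day 7, 1 gene had passed, Pkm (-0.91 ± 0.13, adjusted p = 0.034), against 0.309% of all genes, and 7 of the 10 had an unadjusted p under 0.05, as did 20.2% of all genes. Pkm lost this call with any library left out other than Per2-/- of day 4 and Per2-/- of day 10 (-1.01 to -0.85). In the cycling cluster with cells of every library, 4 genes fell to day 10, against 3.02% of all genes called there: Aldoa (-1.29), Pkm (-1.06), Ldha (-0.80) and Pgk1 (-0.65). Slc2a1 (-1.54), Pfkp (-0.88) and Hk1 (-0.50) did not pass there.

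In fibroblast-like cells, 6 of the 10 genes fell from day 4 to day 10 and none rose, against 13.6% of all genes. Pgk1 was at 186, 207 and 213 CPM (WT, Per1-/- and Per2-/-) on day 4, 113, 99.8 and 109 CPM on day 7 and 86.4, 68.5 and 104 CPM on day 10. Day 4 stood wholly above the later days (-1.29 ± 0.12, adjusted p = 0.0020). Pkm went from 355, 314 and 343 CPM through 221, 166 and 195 CPM to 176, 131 and 211 CPM, with the same gap after day 4 (-1.03 ± 0.13, adjusted p = 0.0048). Ldha went from 237, 262 and 299 CPM on day 4 to 152, 170.5 and 196 CPM on day 10 (-0.67 ± 0.13, adjusted p = 0.018), and Hk2 from 4.40, 7.32 and 8.75 CPM to 3.29, 3.09 and 3.48 CPM (-1.05 ± 0.19, adjusted p = 0.017). Both were lower in each library of day 10 than in any of day 4. Slc2a1 (-0.76 ± 0.20, adjusted p = 0.046) lost the call with any library left out other than WT of day 10, and Aldoa (-0.48 ± 0.12, adjusted p = 0.047) with any other than Per2-/- of day 10. Pfkl (-0.54 ± 0.15, adjusted p = 0.059), Hk1 (-0.30 ± 0.09, adjusted p = 0.070), Pfkp (0.16 ± 0.15, adjusted p = 0.51) and Ldhb (-0.14 ± 0.16, adjusted p = 0.60) did not pass. Without Per2-/- of day 4 or Per1-/- of day 10, 2 genes were called, Pgk1 and Pkm, against 8.73% and 4.22% of all genes. Without WT of day 10, the library that stands apart, Aldoa (-0.32) and Ldha (-0.59) lost the call here, and no call on day 10 was lost in the other 2 classes. By day 7, Pgk1 (-0.94 ± 0.12) and Pkm (-0.84 ± 0.13) had passed, against 0.63% of all genes, and with a library left out at most 1 gene passed. In the 2 fibroblast-like clusters with cells of every library, Pgk1 (-1.16), Pkm (-0.92), Aldoa (-0.83), Pfkl (-0.73), Ldha (-0.72) and Hk1 (-0.49) fell to day 10, against 8.92% of all genes called there, and Hk2 (-0.77) and Slc2a1 (-0.64) did not pass.

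**Figure D3:**
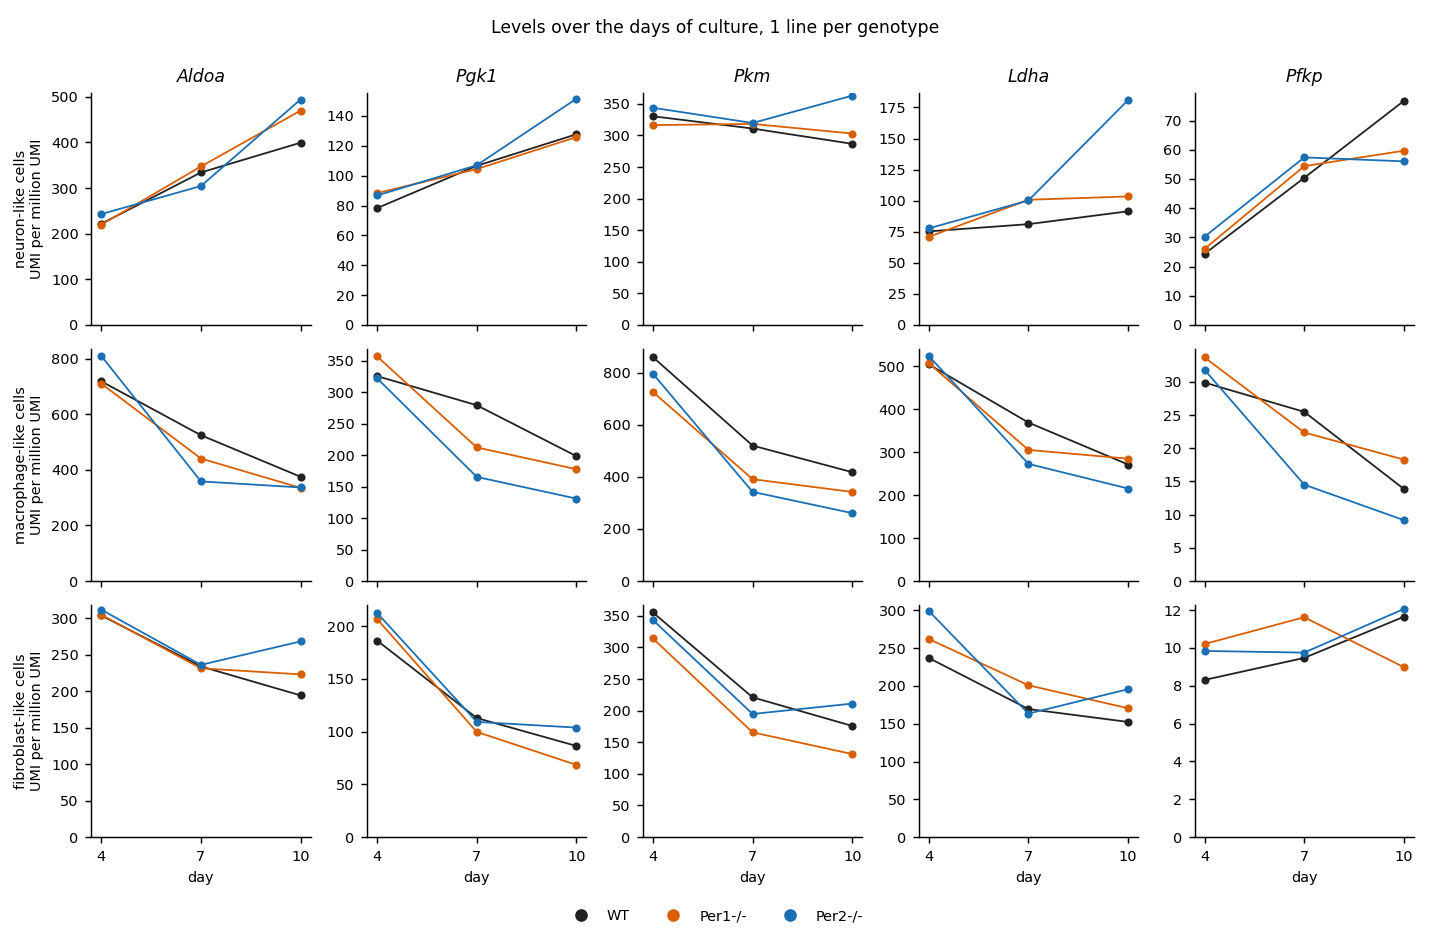
Level of Aldoa, Pgk1, Pkm, Ldha and Pfkp by day (4, 7 and 10) in each class, in UMI per 1000000 UMI on linear axes that start at 0 and differ between panels, 1 point per library and a line for each genotype. Neuron-like Aldoa climbs from 219.6 to 243 CPM on day 4 to 399 to 494 CPM on day 10, while macrophage-like and fibroblast-like Pgk1 and Pkm are highest on day 4.

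That the classes differed in their change was tested with an interaction of class and day over all 27 sums (edgeR), a fit added after the data were seen. Between neuron-like and fibroblast-like cells, the change from day 4 to day 10 differed for 6 genes, all toward neuron-like cells, against 19.7% of all genes: Pgk1 (1.98 ± 0.22), Aldoa (1.49 ± 0.13), Ldha (1.41 ± 0.25), Pfkp (1.10 ± 0.29), Pkm (0.99 ± 0.21) and Pfkl (0.44 ± 0.14). Between neuron-like and macrophage-like cells it differed for 6, again toward neuron-like cells, against 21.2%: Pfkp (2.31 ± 0.31), Aldoa (1.94 ± 0.13), Ldha (1.56 ± 0.25), Pgk1 (1.53 ± 0.22), Pkm (1.02 ± 0.22) and Hk1 (0.94 ± 0.19). Between macrophage-like and fibroblast-like cells it differed for 1, Pfkp (-1.21 ± 0.30, adjusted p = 0.028), against 6.2%. These comparisons share classes and libraries. In the clusters with cells of every library, 2 genes (Aldoa and Pgk1), 1 gene (Aldoa) and 0 genes passed in the same order, against 1.87%, 0.115% and 1.28% of all genes. Those clusters hold fewer cells, so a lost call there does not by itself show a smaller difference. Changes fitted there within a class are given above. Without WT of day 10, Pfkl (0.43) and Pfkp (0.98) lost the call between neuron-like and fibroblast-like cells.

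**Figure D4:**
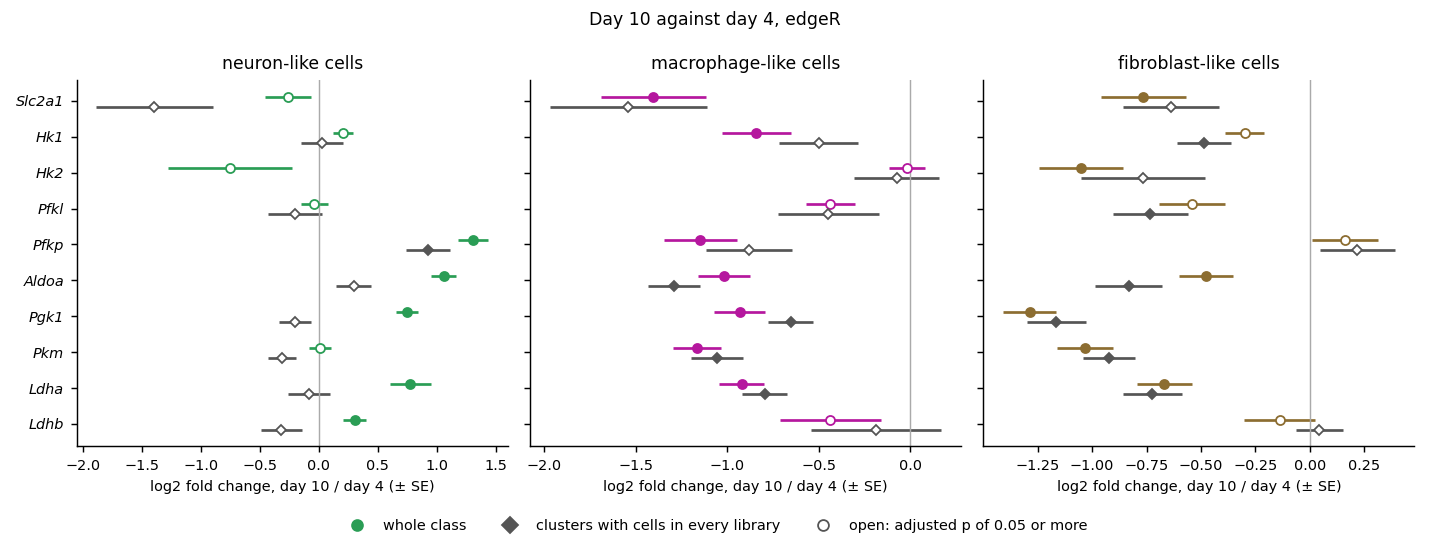
Fitted log2 fold change of each gene from day 4 to day 10 (± SE, edgeR) in the 3 classes, as coloured circles for the whole class and grey diamonds for the clusters with cells of every library, filled where the adjusted p was under 0.05. Circles of neuron-like cells lie to the right for Pfkp (1.31), Aldoa (1.06), Ldha (0.78) and Pgk1 (0.74), where those of macrophage-like cells lie to the left, and the neuron-like diamonds of Pgk1 and Ldha do not.

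The genotypes ask whether loss of Per1 or Per2 goes with other levels of these genes. None of the 10 genes passed between genotypes in any of the 9 comparisons (edgeR, day as a factor), and few genes did at all. For Per1-/- against WT, 0% of all genes passed in neuron-like cells, 0.0158% in macrophage-like cells and 0% in fibroblast-like cells, and 0, 2 and 1 of the 10 genes had an unadjusted p under 0.05, against 4.69%, 6.83% and 15.5% of all genes. For Per2-/- against WT, 0% passed in each class, and 2, 2 and 3 of the 10 had an unadjusted p under 0.05, against 4.35%, 16.1% and 7.94% of all genes. For Per1-/- against Per2-/-, 0.00688%, 0.00791% and 0% passed, and the 10 genes gave 1, 2 and 3 at an unadjusted p under 0.05, against 7.77%, 15.2% and 13.1% of all genes. DESeq2 called 1 gene in macrophage-like cells (Ldhb, -1.06) and 1 in fibroblast-like cells (Slc2a1, -0.79), both in Per1-/- against Per2-/-, where it called 1.2% and 2.55% of all genes, and 0 in the other 7 comparisons.

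Among the widest differences by genotype, several rested on 1 day. In macrophage-like cells, Ldhb was at 10.0, 3.28 and 4.17 CPM in Per1-/- on days 4, 7 and 10 and at 10.4, 8.18 and 13.4 CPM in Per2-/- (-1.09 ± 0.26, adjusted p = 0.20), with WT between them on days 7 and 10. In neuron-like cells, Hk2 in Per2-/- was at 1.92, 8.54 and 1.44 CPM against 1.66, 1.26 and 0.936 CPM in WT (1.38 ± 0.46, adjusted p = 0.82), and day 7 alone stood out. Ldha in the same cells was at 77.7, 100.1 and 181 CPM in Per2-/- against 75.3, 81.1 and 91.4 CPM in WT (0.46 ± 0.17, adjusted p = 0.91). Slc2a1 in fibroblast-like cells was at 19.2, 7.96 and 8.78 CPM in Per2-/- and at 9.24, 5.86 and 5.06 CPM in Per1-/- (-0.78 ± 0.20, adjusted p = 0.35). Of the Per2-/- fibroblast-like cells of day 4, 1334 lay in a cluster with 90.2% of its cells from that library. Over all libraries that cluster held Slc2a1 at 27.6 CPM, and the other fibroblast-like clusters held it at 5.35 to 12.3 CPM. The part of that cluster in the genotype difference was not tested. Without Per2-/- of day 4, macrophage-like Pkm (-0.59), Pgk1 (-0.58), Slc2a1 (-0.98), Hk1 (-0.60) and Pfkp (-0.69) passed as lower in Per2-/- than in WT, where 9.44% of all genes were then called, and 4 genes passed between Per1-/- and Per2-/- (Ldhb -1.37, Pfkp 0.86, Hk1 0.63 and Pgk1 0.50), where 12.9% were.

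**Figure D5:**
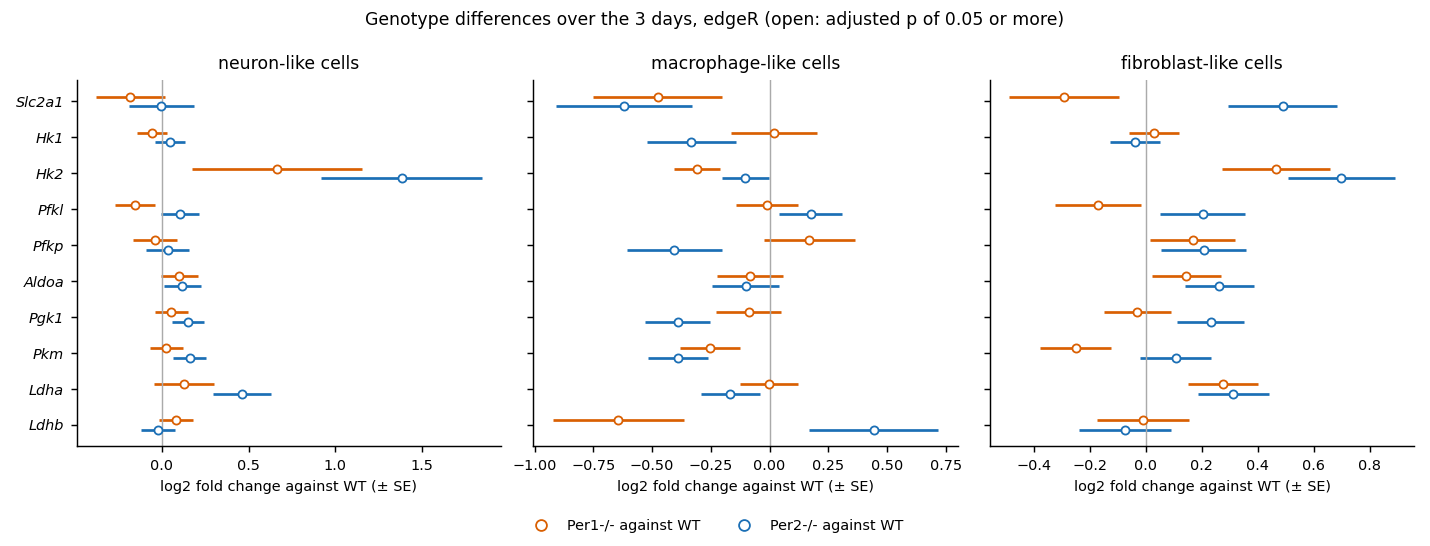
Fitted log2 fold change (± SE, edgeR) of the 10 genes in Per1-/- and Per2-/- against WT over the 3 days, by class. No adjusted p was under 0.05, and the widest departures are those of Hk2 in Per2-/-, at 1.38 in neuron-like and 0.70 in fibroblast-like cells.

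Other genes around the pathway were read as 3 lists of 17, 19 and 23 genes. Of the other glycolytic enzymes, 6 of 13 tested genes passed between neuron-like and fibroblast-like cells (4 higher, 2 lower, median -0.09), 11 of 13 between macrophage-like and fibroblast-like cells (6 higher, 5 lower, median 0.52) and 12 of 13 between macrophage-like and neuron-like cells (7 higher, 5 lower, median 0.92), and 4 listed genes were not tested there. Of all genes 78.7%, 81% and 85.9% passed in the same order, so the first count lay below the background and the other 2 near it. Hk3, a hexokinase of myeloid cells, was at 17.4 to 53.1 CPM in macrophage-like cells and at most 0.229 CPM in the other 2. Hkdc1, a hexokinase-like gene, was at 2.10 to 7.84 CPM in neuron-like cells and at most 0.344 CPM in the other 2. It was also among the leading genes of an unnamed cluster of 97 cells with macrophage markers. Pfkm, the muscle phosphofructokinase, was lower in macrophage-like than in fibroblast-like cells (-2.12 ± 0.11), and Aldoc, an aldolase of brain, was lower in neuron-like than in fibroblast-like cells (-2.24 ± 0.45).

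From day 4 to day 10, 7 of 12 of these enzymes passed in neuron-like cells (6 higher, 1 lower), where 41.4% of all genes did, among them Eno2, the neuronal enolase (1.44 ± 0.10), Gapdh (1.12 ± 0.11) and, downward, Hkdc1 (-1.40 ± 0.28). In macrophage-like cells 5 of 10 passed, all lower (17.2% of all genes), with Eno1 (-1.39 ± 0.20), Pgam1 (-0.82 ± 0.14) and Hk3 (-0.63 ± 0.17) first. In fibroblast-like cells 6 of 12 passed, all lower (13.6% of all genes), with Aldoc (-2.34 ± 0.39), Eno1 (-1.39 ± 0.22) and Gapdh (-0.91 ± 0.15) first. By day 7, 4 of 12 passed in neuron-like cells (Eno2 0.90, Gapdh 0.63 and Hkdc1 -0.85 among them, 17% of all genes) and 0 in the other classes, where 6 of 10 (macrophage-like) and 6 of 12 (fibroblast-like) had an unadjusted p under 0.05, as did 20.2% and 17.6% of all genes.

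Of the genes of glucose and lactate transport and of pyruvate entry, 16 of 18 passed between neuron-like and fibroblast-like cells (8 higher, 8 lower), 16 of 18 between macrophage-like and fibroblast-like cells (8 and 8) and 14 of 18 between macrophage-like and neuron-like cells (8 higher, 6 lower), against 78.7%, 81% and 85.9% of all genes, so these counts too stood near the background. Slc16a1, which encodes the lactate transporter MCT1, was at 0.993 to 3.04 CPM in neuron-like cells, 3.64 to 9.41 CPM in macrophage-like cells and 6.52 to 17.3 CPM in fibroblast-like cells (neuron-like against fibroblast-like -3.04 ± 0.24). Slc16a7, which encodes MCT2, the transporter typical of neurons, was at 18.6 to 52.2 CPM in neuron-like and 21.4 to 41.5 CPM in macrophage-like cells against 2.38 to 4.94 CPM in fibroblast-like cells (macrophage-like 3.16 ± 0.19). Pfkfb3, whose product drives phosphofructokinase, was higher in macrophage-like than in fibroblast-like cells (2.26 ± 0.12). Pdk4, a brake on pyruvate entry into mitochondria, was at 1.42 to 5.25 CPM in fibroblast-like cells and at most 1.13 CPM in macrophage-like and neuron-like cells, and Slc2a4 (GLUT4) reached at most 1.53 CPM in any of these classes. Between macrophage-like and neuron-like cells, Slc16a1 (2.35 ± 0.24), Pdk1 (1.99 ± 0.08) and Pfkfb4 (1.56 ± 0.14) led.

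From day 4 to day 10, 8 of 16 of these genes passed in neuron-like cells (7 higher, 1 lower), close to the 41.4% of all genes, led by Slc16a7 (1.38 ± 0.12), Slc16a1 (1.06 ± 0.35) and the neuronal glucose transporter gene Slc2a3 (0.98 ± 0.22). In macrophage-like cells 5 of 16 passed (4 higher, 1 lower, 17.2% of all genes), and the lactate exporter gene Slc16a3 fell most (-2.26 ± 0.20), beside Pdk2 (0.83 ± 0.24) and Slc16a7 (0.65 ± 0.14). In fibroblast-like cells 2 of 19 passed, both lower (13.6% of all genes), Slc16a3 (-1.30 ± 0.32) and Slc16a1 (-0.92 ± 0.16). By day 7, 3 of 16 passed in neuron-like cells, all higher (Slc16a7 1.02, Slc2a3 0.73 and Mpc1 0.39), near the 17% of all genes. In macrophage-like and fibroblast-like cells 0 passed, and 5 of 16 and 4 of 19 had an unadjusted p under 0.05, against 20.2% and 17.6% of all genes.

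HIF subunits and HIF targets outside glycolysis are a list of 23 genes. Between neuron-like and fibroblast-like cells 19 of 23 passed (6 higher, 13 lower, median -0.70), between macrophage-like and fibroblast-like cells 19 of 23 (4 higher, 15 lower, median -0.38) and between macrophage-like and neuron-like cells 18 of 23 (8 higher, 10 lower, median -0.11). Against 78.7%, 81% and 85.9% of all genes, the counts stood near the background, and so did the last split (39.2% of all genes higher, 46.8% lower). Vegfa, the vascular growth factor, was at 0.241 to 1.16 CPM in macrophage-like cells against 18.2 to 29.2 CPM in fibroblast-like cells (-5.09 ± 0.18). Adm, which encodes adrenomedullin, was at 12.7 to 34.9 CPM in fibroblast-like cells and at most 1.61 CPM in the others, and Plod2, a collagen-modifying enzyme, was lower in macrophage-like than in fibroblast-like cells (-4.19 ± 0.20). Car9 and Epas1 were at most 0.756 and 0.142 CPM in neuron-like cells against 4.10 to 8.78 and 3.06 to 13.6 CPM in macrophage-like cells.

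With the day, 12 of the 21 HIF genes tested in neuron-like cells passed, 2 higher and 10 lower, against 41.4% of all genes, with Rcor2 (-1.78 ± 0.12), Mxi1 (-1.36 ± 0.17) and Kdm3a (-0.96 ± 0.12) first. In macrophage-like cells 6 of 23 passed (2 higher, 4 lower: P4ha2 -1.16, Plod2 -1.08 and Ndrg1 0.96 led), against 17.2% of all genes, and in fibroblast-like cells 2 (Ddit4 -1.17 and Ndrg1 0.81), against 13.6%. By day 7, 5 of 21 passed in neuron-like cells, all lower (Rcor2 -1.08, Mxi1 -0.85 and Egln3 -0.62 led), against 17% of all genes. In macrophage-like and fibroblast-like cells 0 passed, and 7 and 6 of 23 had an unadjusted p under 0.05, against 20.2% and 17.6% of all genes. Between genotypes no gene of the 3 lists passed in any class with edgeR, and 0 to 6 genes of a list had an unadjusted p under 0.05, where 4.35% to 16.1% of all genes did.

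In the interaction of class and day, the other enzymes gave 6 of 13 for neuron-like against fibroblast-like and 6 of 13 for neuron-like against macrophage-like cells, all toward neuron-like cells, where 19.7% and 21.2% of all genes passed, with Gapdh (1.99 ± 0.20 and 1.54 ± 0.20), Eno2 (1.54 ± 0.26 and 2.18 ± 0.31) and Pgam1 (1.35 ± 0.24 and 1.51 ± 0.24) first in both. Transport genes gave 8 and 6 of 18, led by Slc16a1 (2.03 ± 0.30) and Slc16a3 (2.48 ± 0.45), and the HIF list 8 and 9 of 23, led by Rcor2 (-2.16 ± 0.42) and Mxi1 (-1.73 ± 0.27). Between macrophage-like and fibroblast-like cells the 3 lists gave 0, 1 (Mpc1, 0.61 ± 0.17) and 1 (Kdm3a, 0.69 ± 0.18), near the 6.2% of all genes that passed. There, 4 of 13, 3 of 18 and 7 of 23 genes had an unadjusted p under 0.05, as did 21.5% of all genes.

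The genes whose levels ran most like the sum of the 10 across the 27 sums, each centred within its class, were Ywhaq (Pearson's r = 0.95), Cycs (0.94), Rwdd1 (0.94), Hat1 (0.92) and Sms (0.91). Cycs encodes cytochrome c, the electron carrier of the mitochondria. Of the listed genes, Tpi1 (0.91), Pgam1 (0.90) and Gapdh (0.83) came closest, then Higd1a (0.82) and Slc16a3 (0.80). The 27 sums share 9 libraries and their depth, so these are descriptions.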

How the data were processed

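The deposited files held raw UMI counts per gene and cell barcode, made by the authors from 10x 3′ v3.1 libraries. Cell Ranger 4.0.0 (days 4 and 7, 31053 genes) or 6.0.0 (day 10, 32285 genes) stands in the file headers, while the submitters' processing notes name Cell Ranger 7.1 and mm10. Of the 30406 genes listed in all 9 libraries, 597 had another symbol in the other version's table. Cells were kept at 3000 UMI or more and at most 20% mitochondrial UMI, and doublets were scored with simulated pairs (expected share growing with the number of cells). Cells were clustered with 2000 variable genes, 30 principal components and 15 neighbours (scikit-learn 1.9.0, igraph 0.11.9, leidenalg 0.10.2, Leiden resolution 1), with 83 genes kept out, namely the members, the other lists and the mitochondrial genes. The 35 clusters were named from marker lists. The rules that left unnamed a cluster with over 95% of its cells from 1 library, and clusters with fibroblast markers but neuronal leading genes, were set after the clusters were seen. A cluster of 4675 cells, 94.5% from Per2-/- of day 10, lay just under that limit and stayed fibroblast-like. At Leiden resolution 2, a cluster of 3195 cells with like leading genes (Mia, Pcolce2, Comp and Epyc) came to 95.1% from 1 library and was left unnamed.

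UMI were summed per library and class and tested with edgeR 4.0.16 (R 4.3.3; TMM, filterByExpr, quasi-likelihood F-test, two-sided, Benjamini-Hochberg over all genes tested, threshold 0.05). The scripts were tested on simulated counts. Levels are UMI per 1000000 UMI of the sum (CPM) with exact Poisson 95% intervals, and shares have Clopper-Pearson 95% intervals. Share differences were tested by permutation with scipy 1.17.1 (Python 3.11.15). Class sums held 3613178 to 100106940 UMI. Alternatives were DESeq2 1.42.0, its size factors, no filter, doublets kept, 6000 UMI, Leiden resolution 2, no library block, no day 10 and each library left out. Added after the data were seen were the wider fibroblast-like class, the clusters with cells of every library, the clusters led by neuronal genes, UMI totals as scaling and the interaction fit.

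The members and lists were chosen with earlier results of these data known. All 10 members were tested in every comparison, and values of those that did not pass between classes, by day 7, between genotypes or in the interaction are given in part. Of each other list the text names up to 3 genes with the largest absolute log2 fold change among those passing, with levels for any listed enzyme. The values of 1 listed gene are not reported here. The 5 genes most like the members' sum are those with the highest Pearson's r of log2(CPM + 1) over 27 class-centred sums. Gene positions come from the annotation of GRCm38, and promoters from RefSeq (GRCm38.p6).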

Additional observations from a re-analysis of the deposited data

Results flagged for a closer look

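The change from day 4 to day 10 differed between classes, by the edgeR interaction test, for 13 pairs of a gene and a comparison, given here on the log2 scale. Toward neuron-like and away from fibroblast-like cells, Pgk1 differed by 1.98, Aldoa by 1.49, Ldha by 1.41, Pfkp by 1.10, Pkm by 0.99 and Pfkl by 0.44. Toward neuron-like and away from macrophage-like cells, Pfkp differed by 2.31, Aldoa by 1.94, Ldha by 1.56, Pgk1 by 1.53, Pkm by 1.02 and Hk1 by 0.94. Macrophage-like minus fibroblast-like Pfkp differed by -1.21. Between these days the clusters that held most cells changed for macrophage-like and neuron-like cells and, in both knockouts, for fibroblast-like cells. The part of that change in these differences was not tested. In the clusters with cells of every library, 3 of the 13 passed. Those clusters hold fewer cells and only a part of each class, so a lost call there does not by itself show a smaller difference.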

How the results depend on the processing

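Over 61 called gene results and 1200 pairs of a result and a setting, 1068 kept direction and threshold, 126 lost the threshold and 6 reversed. Of 149 results not called, 66 of 2934 such pairs gained it. Reversed were Pfkl between macrophage-like and neuron-like cells, at -0.46 with UMI totals as scaling and -0.35 in clusters with cells of every library, and in those clusters neuron-like Pgk1 (day 7 -0.45, day 10 -0.20), Ldha (day 10 -0.084) and Ldhb (day 10 -0.32). Those clusters gave 1 called gene on days 7 and 10 in neuron-like cells, 0 and 4 in macrophage-like cells, 1 on day 7 in fibroblast-like cells, and 2, 0 and 1 for the differences between classes (neuron-like minus fibroblast-like, macrophage-like minus fibroblast-like, neuron-like minus macrophage-like). On day 7, macrophage-like cells gave 6 called genes with no filter and with DESeq2 and 0 without day 10. Fibroblast-like cells gave 5 with DESeq2, 1 with DESeq2's size factors and with UMI totals, and 0 at resolution 2, without day 10 and in the wider class. The macrophage-like minus fibroblast-like difference gave 2 with DESeq2's size factors, doublets kept, the wider class, the clusters led by neuronal genes and UMI totals. Between genotypes, no filter gave 2 in neuron-like cells (Per2-/- against WT: Hk2 and Ldha) and 1 in macrophage-like cells (Per1-/- against Per2-/-: Ldhb), and DESeq2 gave 1 each in macrophage-like and fibroblast-like cells (Per1-/- against Per2-/-). Except where given above, these counts come without the share of all genes called under the same setting. They show how calls depend on the setting and are not a result about the 10 genes. The causes were not tested.

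Leaving out 1 library gave 7 called genes between neuron-like and fibroblast-like cells, 8 to 9 between macrophage-like and fibroblast-like and 8 to 10 between macrophage-like and neuron-like cells. It gave 1 to 4 (day 7) and 4 to 6 (day 10) in neuron-like, 0 to 2 and 5 to 8 in macrophage-like and 0 to 1 and 2 to 4 in fibroblast-like cells, and 4 to 6, 0 to 3 and 6 for the differences between classes in the order above. Between genotypes it gave 0 to 5 (Per2-/- against WT) and 0 to 4 (Per1-/- against Per2-/-) in macrophage-like cells, both highs without Per2-/- of day 4, and 0 elsewhere. Except where given above, these counts too come without the share of all genes called. The share differences kept direction and threshold under every setting run. DESeq2's size factors moved the median of all genes by 0.12 (neuron-like against fibroblast-like) and -0.15 (macrophage-like against neuron-like). For the differences between classes on day 10 they moved it by 0.02 (neuron-like minus fibroblast-like), -0.12 (macrophage-like minus fibroblast-like) and 0.15 (neuron-like minus macrophage-like). DESeq2 was not run for the differences between classes.

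With 1 library per genotype and day, culture, capture and sequencing cannot be told apart from the group. The p-values rest on how far day differences varied between genotypes, genotype differences between days, and class differences between libraries. Pgk1, Ldha and Aldoa have near-identical copies in the genome, so their counts are uncertain to that extent. Low levels, such as Hk2 in neuron-like cells, rest on as few as 4 UMI.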

Other observations

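Smaller classes held the 10 genes at other levels. Astrocyte-like cells (888 cells, 15 to 165 per library) had the highest median sum of the named classes, 2417 CPM, with Slc2a1 at 15.3 to 60.8 CPM, Ldhb at 247 to 630 CPM and Ldha at 206 to 686 CPM over the 9 libraries. Skeletal muscle-like cells (2978 cells) had a median sum of 1789 CPM, and Pkm ran from 491 to 783 CPM in them. Ldhb made up 41.9% to 58.6% of lactate dehydrogenase UMI in skeletal muscle-like cells and 30.8% to 67.8% in astrocyte-like cells, and Pfkp 35.7% to 78.7% of phosphofructokinase UMI in Schwann-like cells. Median sums were 1261 CPM in Schwann-like and 1341 CPM in mesothelial-like cells.

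An unnamed cluster of 301 cells was led by adipocyte genes. It had 139, 92 and 44 cells on day 10 (WT, Per1-/- and Per2-/-) and at most 17 in any earlier library. Over all libraries its sum was 3068 CPM, with Aldoa at 1457 CPM, Ldha at 616 CPM, Pfkl at 85.9 CPM and Hk2 at 83.1 CPM. That Hk2 level was close to the highest macrophage-like value, 82.2 CPM. These classes were not compared by a test.

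In neuron-like cells, Pfkp made up 46.1% to 49.5% of phosphofructokinase UMI in the libraries of day 4, 59.8% to 66.8% in those of day 7 and 63.8% to 73.7% in those of day 10, and day 4 did not overlap the later days. The same share in macrophage-like cells was 55.1% to 56.3%, 40.7% to 54.3% and 30.4% to 55%.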
